A study of Mus musculus with 2 samples.

Results

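Collagen, matrix and stromal marker genes were followed in cultured B-lymphoma cells of Eµ-Myc mice. Of 37 genes listed by name as fibroblast, mural cell, endothelial and matrix genes, 36 were matched to 80 probe sets through the platform's gene symbols, out of 18193 genes named on the array in all. The exception was Fbn1, which encodes the microfibril protein fibrillin-1 and was not analysed here. The study set 1 array of a lymphoma of the genotype Cdk4+/+:Eµ-Myc (wild type) against 1 array of a lymphoma of the genotype Cdk4-/-:Eµ-Myc (null), both described as from lymph nodes. Both carry the Myc transgene under the immunoglobulin heavy chain enhancer (Eµ), which is active in B-lineage cells. The labels mention cell lines and cultured lymphoma cells, and give neither the number of mice nor the age or passage of either culture. With 1 array per group there are no replicates, so no difference below has a standard error or a p-value, and precision is limited by that number.

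In a lymph node, fibroblastic reticular cells, pericytes and endothelium make the matrix that lymphocytes move along. Type I and type III collagens form its fibrils, type IV collagen and laminins its basement membranes, and enzymes such as lysyl oxidase cross-link it. B-lineage cells are not known as a main source of fibrillar collagen, and collagen and stromal genes are commonly read as a sign of other cells in a preparation. In RNA of a whole culture, fewer stromal cells and less RNA per cell cannot be told apart.

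The values are MAS5 signal intensities on a linear scale. A floor of 62.2, the median of all non-control probe sets on both arrays, stood in for detection calls. Where both arrays exceeded this floor the fold is measured. Where 1 array did, it is a bound against the floor, written "at least", and where neither did, none is given. Of the 20905 probe sets below the signal floor on both arrays, 42.4% had raw signals that differed by 2-fold or more, which is why no fold is given there. Above the floor, the log2 differences of 2 unshared probe sets of the same gene scattered with an SD of 0.30 per probe set over 3082 genes, and with an SD of 0.39 over the 250 genes with a mean signal under 249. This is probe set error and leaves out the variation between cultures.

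The label check went against the genotypes. The 3 probe sets of Cdk4 read 1.19, 1.18 and 3.71 on the array labelled Cdk4+/+ and 4945, 4506 and 6958 on the array labelled Cdk4-/-, and the brightest was at least 112-fold higher on the latter. Directions are stated by label throughout, and would all turn if the labels were exchanged. The B-lineage label held on both arrays, with 7 of 7 measured markers above the signal floor on each. Cd79a, a signalling chain of the B-cell receptor, stood at 8121 and 9216, Cd79b at 7191 and 7634, the transcription factors Pax5 at 658 and 712 and Ebf1 at 1779 and 2491, and Ptprc (CD45) at 4285 and 5706 on the 2 arrays in that order.

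The median signal of the 36 matrix and stromal genes was 34.5 on the array labelled Cdk4+/+ and 105 on the array labelled Cdk4-/-. Of the 36 genes, 12 were above the signal floor on the array labelled Cdk4+/+ and 25 on the array labelled Cdk4-/-, against 55.3% and 55.4% of all named genes. Against each array's own median probe set signal, 11 genes (30.6%) and 25 genes (69.4%) lay above it. By probe set, 17 of 80 (21.2%) and 39 of 80 (48.8%) did so, where 50% is the share over all probe sets by definition. The gene counts use the probe set with the highest mean log2 signal of each gene.

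Of the 36, 7 exceeded the signal floor on each array, 18 exceeded it only on the array labelled Cdk4-/-, 5 only on the array labelled Cdk4+/+ and 6 on neither. Over all named genes, 3.58% were above the signal floor only on the array labelled Cdk4-/- and 3.42% only on the array labelled Cdk4+/+. Of the 30 members above the signal floor on at least 1 array, 13 (43.3%) were 2-fold or more higher on the array labelled Cdk4-/-, 3 of them measured and 10 as bounds, beside 5.76% of all genes. In the other direction 2 members (6.67%) were 2-fold or more lower, beside 3.99% of all genes. At 4-fold, 6 members were higher, beside 1.62% of all genes, and 1 was lower, beside 1.06%. Of the 18 members above the signal floor only on the array labelled Cdk4-/-, 10 (55.6%) reached 2-fold, beside 33% of all genes in that class. The median log2 difference of the 30 was 0.76 against 0.00 for all genes, and 24 of 30 lay above 0 beside 50.1% of all genes. The 18 could only lie above 0 and the 5 only below it. The 7 members measured on both arrays ranged from -1.18 (Fstl1) to 2.79 (Col1a2). Their median of 0.39, against 0.00 for all genes, was the value of Pcolce, near the floor. It was no larger than the probe set SD of 0.39 among dim genes. At a higher floor, the 75th signal percentile, 5 members exceeded it on at least 1 array. Of these, 0 were 2-fold higher, beside 2.88% of all genes, and 1 was lower, beside 1.74%. With the mean of all probe sets of a gene, 5 of 19 were higher, beside 5.09% of all genes.

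**Figure D1:**
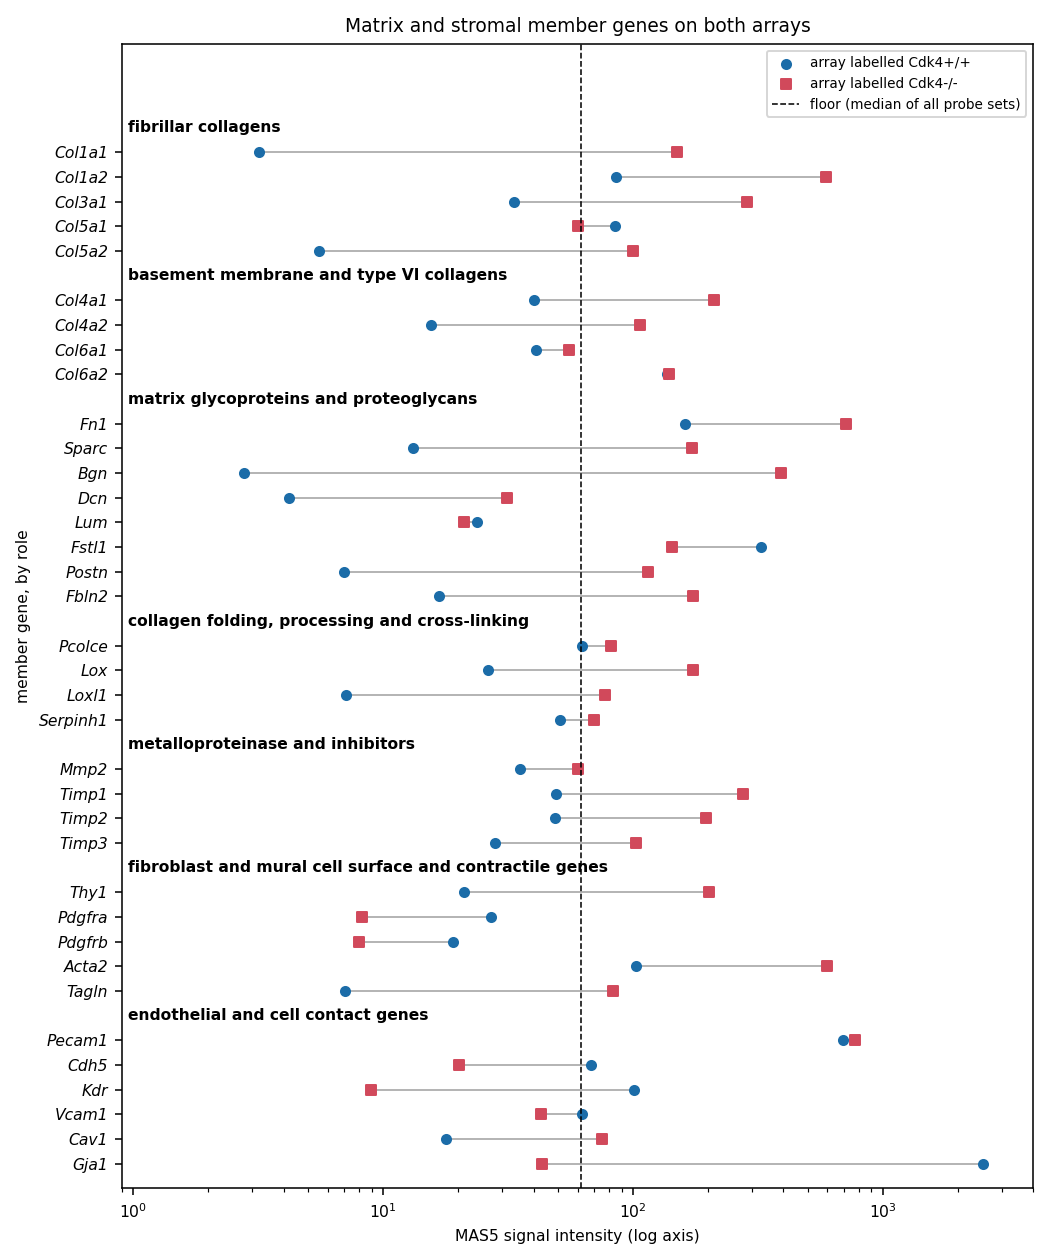
MAS5 signal intensity of the probe set with the highest mean log2 signal of each of 36 member genes, grouped by role, on a log axis. Circles are the array labelled Cdk4+/+, squares the array labelled Cdk4-/-, and a dashed line marks the floor of 62.2. In most rows the square lies to the right of the circle, and Gja1 has the widest gap in the opposite direction, at 2524 against 43.1.

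**Figure D2:**
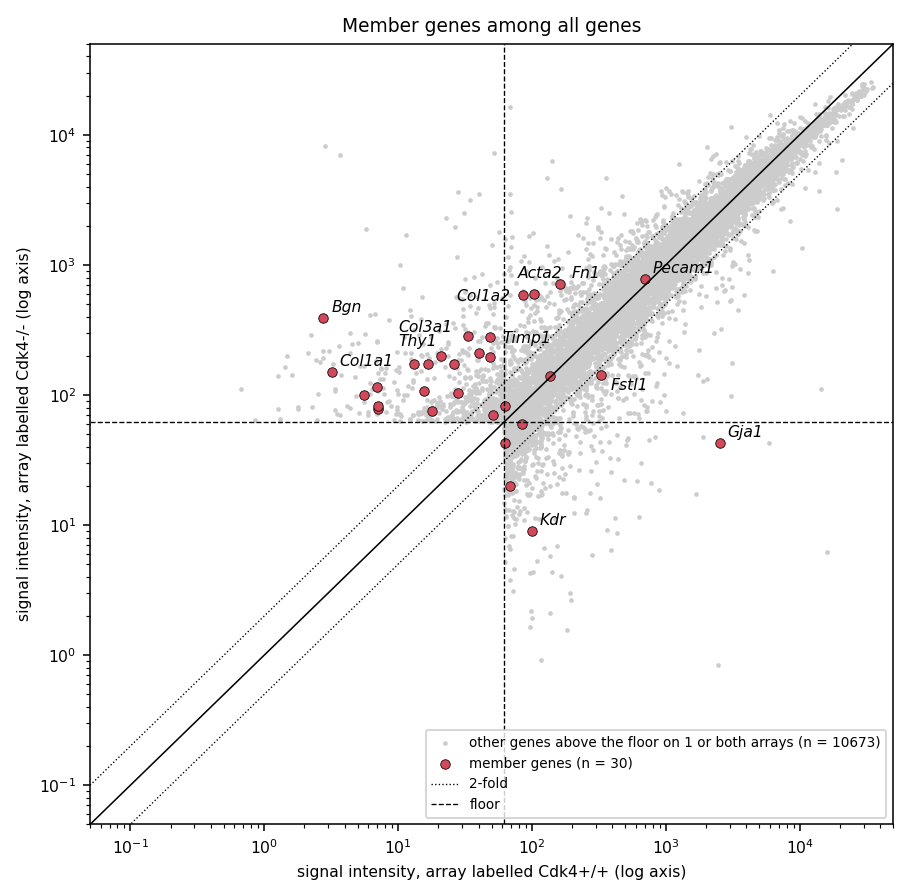
Signal intensity on the array labelled Cdk4+/+ (horizontal, log axis) against the array labelled Cdk4-/- (vertical, log axis) for genes above the signal floor on at least 1 array, with 30 members as large points, other genes as small points, the floor dashed and 2-fold dotted. Members gather at the dim end of the axes, left of the floor on the array labelled Cdk4+/+, with Gja1, Fstl1 and Kdr among those on the other side of the diagonal.

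The upstream sequence of 3 members with a large fold or bound among collagens and proteoglycans, and of Gja1, which was lower on the array labelled Cdk4-/-, is shown so that the letters beside these values can be read. Windows are the 250 bases before the RefSeq gene start of GRCm38.p6, for Col1a2 at chr6:4505368-4505617, Bgn at chrX:73483351-73483600, Col3a1 at chr1:45311288-45311537 and Gja1 at chr10:56377050-56377299, all on the plus strand. Capitals mark matches, on either strand, to the CCAAT box, spelled CCAAT, the GC box, spelled GGGCGG, the TATA box, spelled TATANA, or the AP-1 site, spelled TGANTCA, and where GC boxes overlap in Bgn the capitals run together.
Col1a2: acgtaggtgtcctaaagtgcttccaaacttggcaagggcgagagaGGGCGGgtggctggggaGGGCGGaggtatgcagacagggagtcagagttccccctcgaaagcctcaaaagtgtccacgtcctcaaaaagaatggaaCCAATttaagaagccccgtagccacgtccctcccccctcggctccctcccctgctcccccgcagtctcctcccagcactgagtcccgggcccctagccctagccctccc
Bgn: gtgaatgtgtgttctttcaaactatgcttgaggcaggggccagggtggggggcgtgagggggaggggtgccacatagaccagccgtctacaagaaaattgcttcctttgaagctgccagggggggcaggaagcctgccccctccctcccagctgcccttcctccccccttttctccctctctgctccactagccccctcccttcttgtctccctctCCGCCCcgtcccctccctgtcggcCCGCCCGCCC
Col3a1: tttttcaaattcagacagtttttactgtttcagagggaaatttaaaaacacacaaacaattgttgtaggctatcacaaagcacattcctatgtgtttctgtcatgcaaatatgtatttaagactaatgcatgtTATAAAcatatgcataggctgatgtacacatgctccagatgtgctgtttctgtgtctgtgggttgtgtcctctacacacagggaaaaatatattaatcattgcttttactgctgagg
Gja1: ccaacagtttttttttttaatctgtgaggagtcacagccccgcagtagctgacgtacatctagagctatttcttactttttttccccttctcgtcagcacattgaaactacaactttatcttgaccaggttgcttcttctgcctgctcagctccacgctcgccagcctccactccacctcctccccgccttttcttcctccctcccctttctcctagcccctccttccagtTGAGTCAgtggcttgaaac

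Windows were at hand for 23 of the 37 listed genes. A gene was counted if any of its windows held a match. A GC box lay in 15 of the 23, against 35.4% of all 27025 genes with windows of the same length. A CCAAT box lay in 5, among them Col1a2, Timp1 and Timp2, against 37.5% of all genes, and a TATA box in 3, among them Col3a1, against 25.7%. Of the 23, 2 held an AP-1 site, Gja1 and Col6a1, against 7.82% of all genes. The E-box CACGTG, the sequence that MYC and MAX bind, was found in 0 of the 23 genes and in 6.86% of all, and the CArG box of serum response factor in 0 of 23 and 1.62% of all. These are matches of letters in these windows, and a window without a match says nothing of the factor.

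The type I and type III collagens were brighter on the array labelled Cdk4-/-. Col1a2, the second chain of type I collagen, read 85.5 on the array labelled Cdk4+/+ and 591 on the array labelled Cdk4-/-, 6.91-fold higher by a probe set that can share sequence with other transcripts. An unshared probe set of Col1a2 read 2.80 against 147, at least 2.36-fold higher, and the last probe set, at 15.3 and 9.31, was below the signal floor on both. Col1a1, the partner chain, read 3.19 against 150.0 and was at least 2.41-fold higher, with its other probe set below the signal floor at 6.33 and 35.5. Col3a1, the chain of type III collagen in reticular fibres, read 33.6 against 286, at least 4.60-fold higher by a shared probe set, with an unshared one below the signal floor at 7.58 and 21.3. All 3 were thus above the signal floor on the array labelled Cdk4-/-, and of the 3 Col1a2 alone was above it on the array labelled Cdk4+/+.

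The type V chains, which help fibrils of type I collagen to nucleate, did not reach 2-fold. Col5a2 read 5.52 against 100.0, at least 1.61-fold higher. Col5a1 read 85.1 against 60.3 by its brightest probe set and 4.35 against 77.2 by another, so its probe sets lay on opposite sides of the floor.

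Of the basement membrane collagens, Col4a1 read 40.1 against 210.3, at least 3.38-fold higher, with its second probe set at 10.8 against 84.8. Col4a2, its partner in the type IV collagen trimer, read 15.5 against 106.6, at least 1.71-fold higher. The type VI chains, which form beaded filaments around cells, did not reach 2-fold. Col6a2 read 137 against 139 by a shared probe set, and 16.9 against 75.4 by its other one, while Col6a1 was below the signal floor on both arrays at 41.1 and 55.2.

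Of 8 matrix glycoproteins and proteoglycans, 6 were above the signal floor on the array labelled Cdk4-/-. Of these, 4 were 2-fold or more higher there, beside 5.76% of all genes, and 1 was lower, beside 3.99%. Bgn, Sparc, Fbln2 and Postn were above the signal floor only on that array, and 33% of all genes in that class reached 2-fold. Bgn, the small proteoglycan biglycan, read 2.77 against 392, which puts it at least 6.30-fold above the other array. The remaining probe sets of Bgn read 2.49 against 157 and 3.18 against 72.2, so 3 of 3 crossed the floor in the same direction. Fn1, which encodes fibronectin, read 162 against 714, a measured 4.41-fold. Sparc, a collagen-binding secreted protein, read 13.2 against 172, at least 2.77-fold higher, and 4.55 against 273 by another probe set, at least 4.39-fold. Fbln2, a microfibril-associated fibulin, read 16.8 against 174 and was at least 2.80-fold higher by a shared probe set.

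Other members of that group were lower, dim or went the other way. Postn, the matricellular protein periostin, read 6.95 against 115, at least 1.84-fold higher. Dcn (decorin), at 4.20 and 31.2, and Lum (lumican), at 23.7 and 21.2, which are small leucine-rich proteoglycans of fibroblasts, were below the signal floor on both arrays. Fstl1, a secreted follistatin-like glycoprotein, read 326 on the array labelled Cdk4+/+ and 143 on the array labelled Cdk4-/-, 2.27-fold lower on the latter. Its second probe set read 329 against 106, 3.10-fold lower.

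Genes of collagen folding, processing and cross-linking were near the floor, with 1 of 4 at 2-fold or more higher, beside 5.76% of all genes. That gene, Lox, was above the floor only on the array labelled Cdk4-/-, and 33% of all genes in that class reached 2-fold. Lox, which encodes lysyl oxidase, read 26.4 against 174, at least 2.79-fold higher, and 13.0 against 114 by a second probe set. Its relative Loxl1 read 7.13 against 77.6, at least 1.25-fold higher. Serpinh1, the collagen chaperone HSP47, read 51.3 against 70.1, and Pcolce, an enhancer of procollagen C-proteinase, read 62.6 against 82.0, both within 1.5-fold of the floor.

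Timp1, Timp2 and Timp3, tissue inhibitors of metalloproteinases, were above the signal floor only on the array labelled Cdk4-/-. Timp4, a relative outside the 37 genes, was above it only on the other array, at 64.3 against 13.0, and was chosen after its values were seen. Timp1 read 49.0 against 277, at least 4.45-fold higher, from its single probe set. Timp2 read 48.7 against 196, at least 3.16-fold higher, and 4 of its 6 probe sets were above the signal floor on the array labelled Cdk4-/- and 0 on the array labelled Cdk4+/+. Timp3 read 27.9 against 103, at least 1.66-fold higher. Mmp2, the gelatinase that TIMP2 helps to activate, was below the signal floor on both arrays at 35.4 and 60.2, just under it on the array labelled Cdk4-/-.

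Of 5 fibroblast and mural cell genes, 3 were above the signal floor on the array labelled Cdk4-/-. Of these, Acta2 and Thy1 were 2-fold or more higher there, beside 5.76% of all genes. Thy1 was above the signal floor only on that array, and 33% of all genes in that class reached 2-fold. Acta2, the smooth muscle actin of pericytes and myofibroblasts, read 103 against 598, a measured 5.81-fold, by a probe set that can share sequence with other transcripts. Its other probe sets were below the signal floor on both arrays, at 22.5 and 12.8 and at 21.8 and 0.765. Thy1, a surface glycoprotein of fibroblasts and also of mouse T cells, read 21.0 against 201, at least 3.23-fold higher. Tagln, which encodes the actin-binding protein SM22, read 7.07 against 82.9, at least 1.33-fold higher. Pdgfra, at 27.0 and 8.23, and Pdgfrb, at 19.1 and 8.04, the receptors that define fibroblasts and pericytes, gave no signal above the signal floor on either array by any of their 5 probe sets.

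Endothelial genes did not follow the collagens. Pecam1 (CD31), found on endothelium and on several leukocytes, read 695 and 777, a ratio of 1.12. Kdr, the VEGF receptor of endothelium, read 101 against 8.96, at least 1.62-fold lower on the array labelled Cdk4-/-. Cdh5, the endothelial cadherin, read 68.2 against 20.2, at least 1.10-fold lower, with its other probe set below the signal floor at 24.7 and 26.1. Vcam1, an adhesion molecule of activated endothelium and stroma, read 62.6 against 42.7, where 62.6 is barely above the signal floor. The other probe sets of Vcam1 were below the signal floor on both arrays, at 4.53 and 32.5 and at 0.912 and 5.06. Cav1, which encodes the caveolae protein caveolin-1, read 17.9 against 75.4, at least 1.21-fold higher. Counting Gja1, 5 of 6 genes of this group were above the signal floor on the array labelled Cdk4+/+ and 2 of 6 on the array labelled Cdk4-/-, the reverse of the other groups.

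Gja1, which encodes the gap junction protein connexin 43, had the largest bound against the floor of all members, in the direction opposite to the collagens. Its 6 probe sets read 2524, 1572, 784, 705, 206 and 155 on the array labelled Cdk4+/+. On the array labelled Cdk4-/- the same probe sets read 43.1, 26.1, 23.5, 16.1, 10.7 and 22.6. All 6 were above the signal floor on the former and below it on the latter. The brightest was at least 40.6-fold lower on the array labelled Cdk4-/-, and the unshared ones at least 25.3-fold and 12.6-fold. The summed signal of the probe sets standing for the members was 4956 on the array labelled Cdk4+/+ and 6366 on the array labelled Cdk4-/-. Without Gja1, the member with the largest difference in that direction, it was 2432 and 6323. All these sums include signals below the floor.

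**Figure D3:**
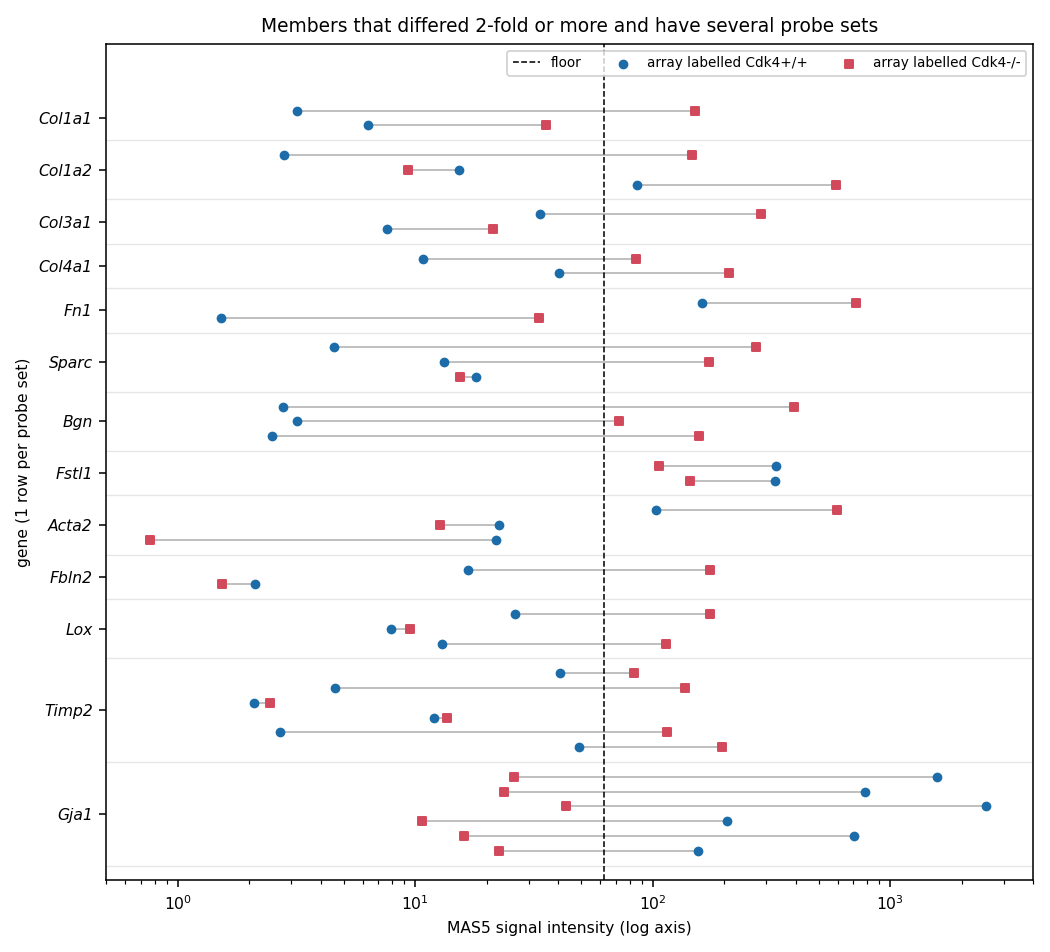
Signal of every probe set (1 row each, log axis) of the 13 members that differed 2-fold or more and have several probe sets, with circles for the array labelled Cdk4+/+, squares for the array labelled Cdk4-/- and the floor dashed. All 6 rows of Gja1 and both rows of Fstl1 have the circle to the right, and all 3 rows of Bgn the square.

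Among members at 2-fold, the probe sets of a gene that were above the signal floor pointed the same way. Col5a1, which did not reach 2-fold, is outside this count and had probe sets on opposite sides of the floor. Of 13 members at 2-fold with several probe sets, 8 had another one above the signal floor on at least 1 array. In 8 of the 8 every such probe set had the same sign, and in 6 of the 8 at least 1 reached 2-fold too. Except for Fstl1, each such probe set was above the signal floor on 1 array only, which by itself fixed its sign. Probe sets below the signal floor on both arrays read in either direction and are not counted. The other 5, Col1a1, Col3a1, Fn1, Fbln2 and Acta2, rest on 1 probe set each, as do Thy1 and Timp1, which have no second one.

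Related matrix genes were counted in lists written with earlier results of these data known. Of 23 other collagens, 9 were above the signal floor on at least 1 array and 0 differed by 2-fold in either direction, with a median log2 difference of -0.40. Laminins, nidogens and perlecan gave 0 of 5 at 2-fold, elastic fibre and microfibril genes 0 of 6, and collagen modifying enzymes 0 of 10. Over all genes 5.76% were higher and 3.99% lower, and these lists are too short to set 0 apart from those shares. Of matricellular genes, 3 were above the signal floor, all only on the array labelled Cdk4-/-, so none could be lower there. Of the 3, 2 were 2-fold or more higher, beside 33% of all genes in that class and 5.76% of all genes. These were Ccn2, connective tissue growth factor, at 1.42 against 164, and Thbs1, thrombospondin-1, at 39.5 against 141.

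Single genes near the pathway also differed. Mmp14, the membrane-type matrix metalloproteinase that acts on pro-MMP2 and collagen, read 56.7 against 1784, and was thus at least 28.7-fold higher. It was the 1 at 2-fold of 5 matrix proteases and inhibitors above the signal floor, beside 5.76% of all genes higher. Tgfb2, a ligand of the TGF-beta family, read 897 against 18.6, at least 14.4-fold lower. Its relatives went the other way, with Tgfb1 at 2037 against 4235, 2.08-fold higher, and Tgfb3 at 18.5 against 136, at least 2.19-fold higher. Of 12 genes of TGF-beta ligands, receptors and signalling, these 3 were the ones at 2-fold, beside 5.76% of all genes higher and 3.99% lower. Of 13 matrix receptors above the signal floor, 1 differed by 2-fold, the lymphocyte integrin chain Itga4 at 1055 against 3719. That count is near the shares over all genes, 5.76% higher and 3.99% lower. Among 11 other connexins, 2 were above the signal floor, both only on the array labelled Cdk4+/+, and neither reached 2-fold by its bound.

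Markers of the cells that could carry such transcripts were counted in the same way. Of 18 further fibroblast markers, 3 were above the signal floor on the array labelled Cdk4+/+ and 4 on the array labelled Cdk4-/-, with a summed signal of 1455 against 3688. Most of both sums came from Dpp4 (CD26), also a lymphocyte surface enzyme, at 979 against 2785. S100a4, which leukocytes also express, read 6.94 against 255, and the actin-severing Gsn 68.4 against 263. Pdpn was just above the signal floor on both arrays, at 65.3 against 77.3, without reaching 2-fold. Cd34, Dpt, Pi16, Twist1, Twist2, Prrx1, Clec3b and Ddr2 were below the signal floor on both. Of 14 pericyte and smooth muscle markers, 2 and 3 were above the signal floor, with summed signals of 759 and 1308. Tpm2, a tropomyosin of muscle, read 26.1 against 164, while Rgs5, Myh11, Cnn1 and Des were below the signal floor on both. Cspg4, at 70.0 against 75.8, and Tpm1, at 471 against 841, were above the signal floor on both without reaching 2-fold.

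Of 20 further endothelial markers, 3 were above the signal floor on each array and 0 differed by 2-fold, with summed signals of 906 and 819. The 3 were Eng, at 114 against 102, Egfl7, at 281 against 240, and Mmrn2, at 126 against 64.1. Tek, Tie1, Vwf, Emcn, Cldn5, Plvap and Sox18 were below the signal floor on both. Of 9 lymph node reticular cell genes, 4 were above the signal floor on each array. Of these, 2 were 2-fold or more higher on the array labelled Cdk4-/-, beside 5.76% of all genes. These were Bst1, also a gene of B-cell precursors, at 63.7 against 399, and the adhesion molecule Icam1 at 196 against 827. Cxcl13, at 87.4 against 66.3, and Mfge8, at 687 against 590, were above the signal floor on each array without reaching 2-fold. Cxcl12, the chemokine of reticular cells, was below the signal floor on both. Epithelial markers had 1 of 8 above the signal floor on each array and adipocyte markers 0 of 4.

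Macrophage markers were also more often above the signal floor on the array labelled Cdk4-/-. Of 11, 5 were above the signal floor on the array labelled Cdk4+/+ and 10 on the array labelled Cdk4-/-, with a summed signal of 537 against 2647. Of the 10, 4 were 2-fold or more higher, beside 5.76% of all genes. Some of the 10 were above the signal floor only on that array, and 33% of all genes in that class reached 2-fold. Lyz2, the macrophage lysozyme, read 70.1 against 1368, the complement gene C1qa 1.27 against 139 and the receptor gene Csf1r 85.5 against 221. Macrophages can express Fn1, Timp1 and Mmp14, and their part in the matrix values was not tested. The macrophage receptor gene Marco was below the signal floor on both arrays. T-cell markers had 2 of 7 above the signal floor on the array labelled Cdk4+/+ and 3 on the array labelled Cdk4-/-, with Cd3e, Cd3d, Cd3g and Cd4 below it on both, and Cd2, also on mouse B cells, at 346 against 931.

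**Figure D4:**
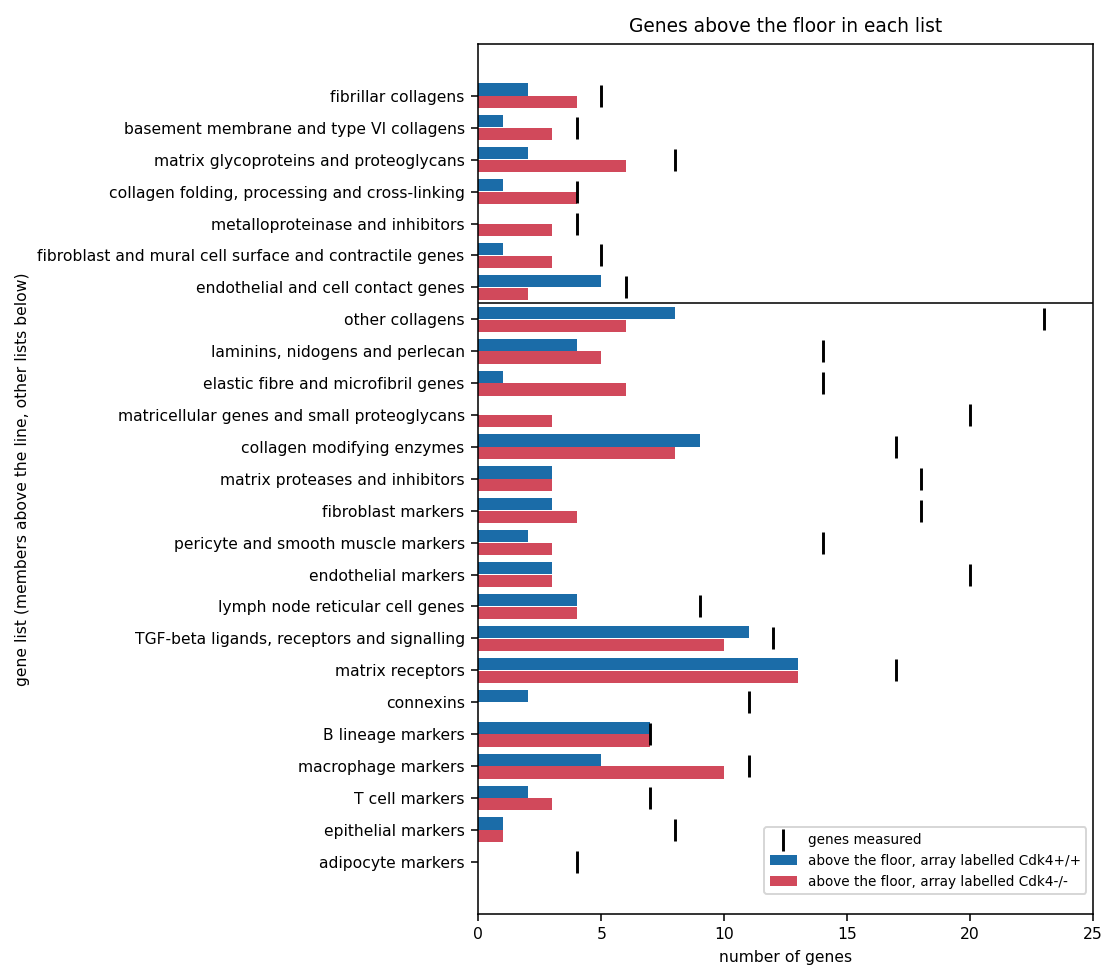
Number of genes above the signal floor (horizontal axis) on the array labelled Cdk4+/+ and on the array labelled Cdk4-/- for the members' 7 role groups, above the line, and the 18 other lists, below it, with a black tick at the number of genes measured. In 6 of the 7 role groups the bar of the array labelled Cdk4-/- is longer, the endothelial and cell contact genes being the exception at 5 against 2, and B-lineage markers reach the tick on both arrays.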

How the data were processed

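Total RNA of 2 cultures, 1 per genotype, was labelled with biotin and hybridised to Affymetrix mouse arrays, per the labels' protocols. The deposited values are signal intensities of 45101 probe sets per array, which the submitters' processing notes credit to MAS5 (version not given in the sources used here). The 2% trimmed mean of the deposited intensity was 500.003 on both arrays, so rescaling to a common value changed nothing. Gene symbols came from GEO's platform annotation, with 1 symbol for 34945, several for 932 and none for 9160, apart from 64 control probe sets; no probe set with several symbols held a member. Each gene was represented by its probe set of highest mean log2 intensity. Probe sets ending in a, s, x or f before "_at" are called shared. Values were floored, then log2 was taken, and differences are Cdk4-/- minus Cdk4+/+. No test was run, since each group had 1 array, and the code was tested on simulated data. Promoter windows and gene names came from RefSeq tables (GRCm38.p6), which held all 37 symbols. Python 3.11.15, numpy 2.4.6, pandas 2.3.3 and scipy 1.17.1 were used. The members and lists were chosen with earlier results of these data known. All members are accounted for. From each other list up to 3 genes with the largest difference of 2-fold or more were named with values. Genes named as below the signal floor (by that probe set), the B-lineage markers and Cdk4 served as checks. In the stromal cell marker lists, genes above the signal floor on both arrays that did not reach 2-fold were named beside them. Alternatives were other floors, normalizations, probe set choices and a pseudocount of 64.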

Additional observations from a re-analysis of the deposited data

How the results depend on the processing

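The floor decides most counts, because most members are dim. At the 25th signal percentile as floor, 28 members exceeded it on the array labelled Cdk4+/+ and 33 on the array labelled Cdk4-/-, 21 were 2-fold or more higher (7.90% of all genes) and 4 lower (7.53%) on the latter, and the median log2 difference was 2.04. At the 75th signal percentile, 2 members exceeded it on the array labelled Cdk4+/+ and 4 on the array labelled Cdk4-/-. Of the 5 members left, 0 were 2-fold higher (2.88% of all genes), 1 was lower (Gja1, beside 1.74% of all genes), and the median was 0.37. Without shared probe sets, 7 members were above the signal floor on the array labelled Cdk4+/+. Of 22 above it on at least 1 array, 10 were 2-fold higher (5.61% of all genes). Col3a1, Acta2 and Fbln2 were no longer among the 10. With the mean of all probe sets of a gene, 4 members were above the signal floor on the array labelled Cdk4+/+. Of 19 above it on at least 1 array, 5 were 2-fold higher (Bgn, Col4a1, Fn1, Thy1 and Timp1), beside 5.09% of all genes. With a pseudocount of 64 the median was 1.15, and the lower members were Gja1 and Kdr in place of Gja1 and Fstl1. Quantile normalization, scaling to the same median and each array's own median as floor left the same 13 members higher and the same 2 lower. So did the brightest signal on either array as the choice of probe set, an alternative chosen after seeing the data. No alternative turned the sign of a member at 2-fold that still had a value. Members that fell below the floor had none to turn, and at the 75th signal percentile 4 still had one. Without shared probe sets, Acta2, Fbln2 and Col3a1 had none. The unshared probe sets of Acta2, below the floor, read 22.5 against 12.8 and 21.8 against 0.765. That of Fbln2 read 2.12 against 1.53 and that of Col3a1 7.58 against 21.3. No paired analysis was possible because each group has 1 array, and none could be left out.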

Other observations

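A few other matrix, integrin and connexin genes were chosen after their values were seen and are given as values only. None of them reached 2-fold, measured or as a bound against the floor. Pcolce2, the relative of Pcolce, read 117 on the array labelled Cdk4+/+ and 0.924 on the array labelled Cdk4-/-, and Gja3, the connexin of the lens, 118 against 17.1, in the direction of Gja1. Lamc1, the laminin gamma-1 chain, read 751 against 421 and Itgav, the alpha-v integrin chain, 1731 against 979. In the other direction Efemp1, which encodes the fibulin-like matrix protein fibulin-3, read 2.28 against 81.6, and Ccn5, a relative of Ccn2, 11.0 against 92.0.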
